A study of Homo sapiens with 4 samples.

Results

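The genes that set the G1 checkpoint of the cell cycle were followed across gRNA-treated libraries of the human line NCI-H1048, which derives from a small cell lung cancer. They are 10 genes of 35979 symbols in the deposited tables: the CDK inhibitors CDKN1A, CDKN1B, CDKN2A and CDKN2B, the D cyclins CCND1, CCND2 and CCND3, the kinases CDK4 and CDK6, and RB1. They are defined by symbol, and the set was drawn up with earlier results of these data known. The libraries were poly(A) RNA-seq of cells with a non-targeting gRNA (genotype WT, 1 library), a POU2F3 gRNA (POU2F3 knockout, 1 library) or a COLCA2 gRNA (COLCA2 knockout, 2 libraries, each with a different guide). No drug or other treatment is labelled for any library. Whether the edited cells were clones or pools is not given in the sources used here, nor is the time after editing. The labels do not say that the COLCA2 libraries came from separate cultures, so their spread holds guide and any technical differences together.

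Cells enter S phase when D cyclins, bound to CDK4 or CDK6, phosphorylate the retinoblastoma protein encoded by RB1 and release E2F transcription factors. INK4 proteins, among them those of CDKN2A and CDKN2B, bind CDK4 and CDK6 themselves, whereas the CIP/KIP proteins p21 (CDKN1A) and p27 (CDKN1B) act on cyclin-CDK complexes. Small cell lung cancers commonly lose RB1 function, and cells without it often carry high CDKN2A. POU2F3 is the transcription factor of the tuft cell-like subtype, which the study's title names, and COLCA2 encodes a co-activator.

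The recovered reads per library numbered 21587741 to 29632382, and mitochondrial genes took 3.96% to 4.47% of them. The targeted gene POU2F3 went from a normalized count of 14602 in the control (the non-targeting library) to 1449 after its own gRNA, and COLCA2 from 5585 to 3119 and 3541 under COLCA2 gRNA 1 and 2. Each gene was also lower under the other target: COLCA2 stood at 1393 after POU2F3 gRNA, below its level under its own guides, and POU2F3 at 3677 and 2351 under the COLCA2 guides. Of 10 tuft-type markers 7 reached a mean normalized count of 20, and TRPM5, PTGS1 and CHAT did not. The summed tuft-type markers stood at 47007 in the non-targeting library and between 10189 and 15423 in the targeted libraries. That sum includes POU2F3 itself, so part of its fall after POU2F3 gRNA was set by the design. The 4 epithelial markers summed to 12082 in the non-targeting library and to 25820 to 37107 in the others, through KRT8, KRT18 and CDH1, while EPCAM was lower in each of them, at 2463 to 3408 against 3986. Of 4 leukocyte markers only CD68 reached that mean, their sum ran from 89.8 in the control to 150 after POU2F3 gRNA and 213 and 218 under the COLCA2 guides, and CD3E was listed at 0 in every library. The 5 neuroendocrine markers, 2 of them at that mean, summed to 198 in the control and 90.6 to 94.8 in the others. The 3 endothelial markers summed to 41.5 to 65.9 and the 4 fibroblast markers to 1310 to 1563, most of it COL1A1. The fibroblast marker LUM stood at 14.3 in the control, 123 after POU2F3 gRNA, and 233 and 201 under the COLCA2 guides. The tuft-type, epithelial, neuroendocrine and leukocyte sums and LUM moved with the gRNA, and their part in the results on the cell-cycle genes was not tested. In bulk RNA, fewer cells of a type and less RNA per cell cannot be told apart.

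Of the 10 genes, 8 had at least 1 promoter in the RefSeq table of GRCh38.p14, which spans 250 bases before to 50 after an annotated start. CCND1 and CCND2 had none. The 8 genes had 12 such windows. The only RB1 window, chr13:48476200-48476499, lies inside that gene, which starts at 48303726, so the sequence around that start was not searched. The promoters of the inhibitors that rose most, CDKN1A and CDKN2B, are shown with that of a start near p16 in CDKN2A, the neighbour of CDKN2B, and with that of CDK4, which stayed within 1.5-fold of the control. In the first 3 sequences capitals mark the GC box, GGGCGG or its reverse complement CCGCCC, the letters of the SP1 family's site. In CDK4 they mark the E-box CACGTG, the letters that MYC-MAX dimers can bind.
CDKN1A, plus strand, chr6:36678464-36678763: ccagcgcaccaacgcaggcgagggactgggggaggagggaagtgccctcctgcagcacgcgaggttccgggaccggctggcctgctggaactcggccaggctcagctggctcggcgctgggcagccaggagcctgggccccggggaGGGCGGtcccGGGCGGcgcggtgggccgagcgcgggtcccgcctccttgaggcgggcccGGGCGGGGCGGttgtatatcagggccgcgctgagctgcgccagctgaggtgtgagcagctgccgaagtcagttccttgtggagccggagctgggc
CDKN2B, minus strand, chr9:22009256-22009555: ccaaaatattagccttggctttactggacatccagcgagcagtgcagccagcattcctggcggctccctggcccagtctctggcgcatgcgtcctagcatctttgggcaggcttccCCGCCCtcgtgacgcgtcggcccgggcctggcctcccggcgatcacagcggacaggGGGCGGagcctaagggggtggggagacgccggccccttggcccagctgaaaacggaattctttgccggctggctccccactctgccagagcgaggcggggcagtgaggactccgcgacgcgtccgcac
CDKN2A, minus strand, chr9:21974808-21975107: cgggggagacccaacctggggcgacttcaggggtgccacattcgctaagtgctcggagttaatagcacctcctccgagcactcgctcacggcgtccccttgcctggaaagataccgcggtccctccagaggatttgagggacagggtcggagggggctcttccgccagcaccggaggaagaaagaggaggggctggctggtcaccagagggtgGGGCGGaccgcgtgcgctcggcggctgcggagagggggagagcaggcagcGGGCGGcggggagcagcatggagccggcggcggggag
CDK4, minus strand, chr12:57752261-57752560: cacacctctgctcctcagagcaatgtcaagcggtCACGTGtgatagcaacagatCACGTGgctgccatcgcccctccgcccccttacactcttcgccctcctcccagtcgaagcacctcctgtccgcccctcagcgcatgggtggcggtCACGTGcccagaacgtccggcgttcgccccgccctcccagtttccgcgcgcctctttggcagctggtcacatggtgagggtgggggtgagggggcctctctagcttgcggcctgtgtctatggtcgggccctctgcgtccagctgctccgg
The CDKN1A window held 4 GC boxes, the last pair of which overlap, and the CDKN2B and CDKN2A windows held 2 each. The CDK4 window also held 3 GC boxes, left in lower case. A GC box on either strand occurred in 44.9% of 34943 promoters of the table, so it does not set these genes apart. The CDK4 window held 3 E-boxes, and 0.0944% of all promoters held 3 or more, against 7.23% with at least 1. The octamer ATGCAAAT, the classical site of POU2 factors, was searched on both strands and is absent from all 12 windows. It occurs in 1.77% of all promoters. These matches describe letters in short windows and carry no measurement of binding.

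CDKN1A and CDKN2B rose several-fold after either target was edited, while CDKN1B and the kinase genes stayed close to the control level. Of the 10 genes, 9 reached the minimum mean normalized count of 20, each of them in every library, and CCND2 was listed at 0. After POU2F3 gRNA 2 genes were at least 2-fold higher (CDKN1A and CDKN2B), where 6.73% of all 14940 genes were, and 0 were lower, where 3.05% were. With both COLCA2 guides 3 genes were at least 2-fold higher (CDKN1A, CDKN2B and CCND1), against 5.79% of all genes, and 0 were lower, against 2.02%. The POU2F3 and COLCA2 comparisons share the same non-targeting library, and no replicate of that library or of the POU2F3 gRNA library exists here. In the alternative test, edgeR's quasi-likelihood test with Benjamini-Hochberg adjustment, 3 of the 9 genes were called higher and 0 lower for POU2F3 gRNA, where it called 8.45% of all genes higher and 3.98% lower. With COLCA2 gRNA 4 were called higher and 0 lower, where it called 11.4% and 7.51%. The additional gene in both tests was CDKN2A. At an unadjusted p under 0.05 it found 3 higher and 0 lower for POU2F3 gRNA, and 5 higher and 0 lower with COLCA2 gRNA, the fifth being CDK6. Over all genes those shares were 15.7% higher and 11.0% lower for POU2F3 gRNA, and 17.9% and 14.8% for COLCA2 gRNA. Each of these tests rests on 1 control library, and its only spread is between 2 different COLCA2 guides, so its p-values compare these libraries and not the conditions.

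**Figure D1:**
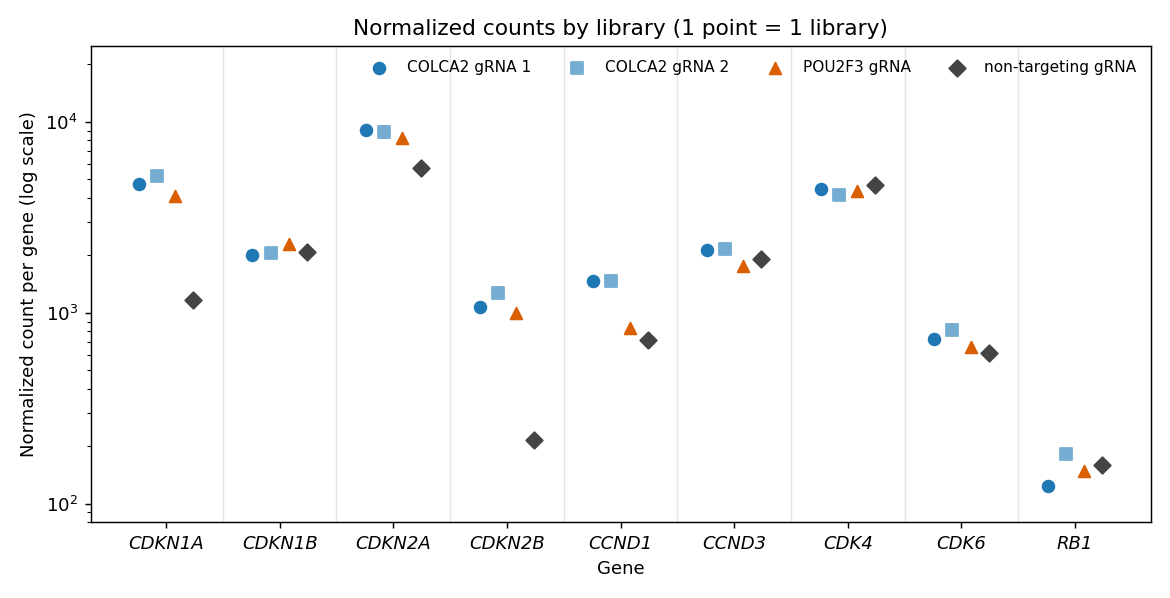
Normalized count per gene (y axis, log scale) of the 9 detected genes (x axis) in each library, 1 point per library. CDKN1A and CDKN2B lie lowest in the non-targeting library, and the COLCA2 guides sit apart from the other libraries at CCND1, with normalized counts of 1461 and 1474 against 833 and 719. CCND2, listed at 0 in every library, is not drawn.

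Among the CIP/KIP inhibitors, CDKN1A (ENSG00000124762, chromosome 6, 36676460 to 36687339, plus strand) encodes p21, a p53 target that also answers to other signals. CDKN1A reached a normalized count of 1166 in the control, 4083 after POU2F3 gRNA, 4718 under COLCA2 gRNA 1 and 5184 under COLCA2 gRNA 2. Every edited library was far above the control, and the order was non-targeting, POU2F3 gRNA, COLCA2 gRNA 1, COLCA2 gRNA 2. The fold over the control was 3.50 after POU2F3 gRNA (95% counting interval 3.29 to 3.73), 4.05 under COLCA2 gRNA 1 (3.80 to 4.31) and 4.45 under COLCA2 gRNA 2 (4.17 to 4.74). The POU2F3 gRNA library lay below both COLCA2 libraries, at 0.865 and 0.788 of their levels, and the guides themselves stood at a ratio of 0.910 (0.873 to 0.949). The gap from COLCA2 gRNA 1 was only somewhat wider than the gap between the guides, and edgeR did not call the difference between the targets (adjusted p = 0.308). For the COLCA2 libraries against the control library edgeR gave an adjusted p of 7.2e-05.

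CDKN1B (ENSG00000111276, chromosome 12, 12715058 to 12722371, plus strand) encodes p27, whose level is set largely by protein turnover through SKP2. Its normalized count was 2089 in the control, 2289 after POU2F3 gRNA, 1999 under COLCA2 gRNA 1 and 2059 under COLCA2 gRNA 2. The libraries lay close together, with POU2F3 gRNA the highest and COLCA2 gRNA 1 the lowest. The ratio to the control was 1.10 (1.04 to 1.16) after POU2F3 gRNA, 0.957 (0.899 to 1.02) under COLCA2 gRNA 1 and 0.986 (0.925 to 1.05) under COLCA2 gRNA 2. Only the POU2F3 gRNA interval leaves out 1, and with COLCA2 gRNA edgeR gave an adjusted p of 0.804. So the CIP/KIP genes parted: CDKN1A rose and CDKN1B did not pass any threshold used. CDKN1C, the third gene of this family and p57 by protein, had normalized counts of 1639, 1867, 1212 and 1241 in the same order of libraries.

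The INK4 genes CDKN2A (ENSG00000147889, chromosome 9, 21967753 to 21995301) and CDKN2B (ENSG00000147883, chromosome 9, 22002903 to 22009363) lie on the minus strand 7601 bp apart. CDKN2B, which encodes p15, had a normalized count of 215 in the control, 999 after POU2F3 gRNA, 1078 under COLCA2 gRNA 1 and 1267 under COLCA2 gRNA 2. It had the largest fold of the 10 genes in each edited library. The fold was 4.65 (4.03 to 5.38) after POU2F3 gRNA, 5.02 (4.34 to 5.82) under COLCA2 gRNA 1 and 5.90 (5.10 to 6.84) under COLCA2 gRNA 2. The order matched that of CDKN1A, and POU2F3 gRNA and COLCA2 gRNA 1 could not be separated by counting error (ratio 0.926, 0.852 to 1.01). With COLCA2 gRNA edgeR gave an adjusted p of 0.000174. In rank, 304 of the 14940 genes had a log2 ratio at least as high as CDKN2B with POU2F3 gRNA, and 427 had one at least as high as CDKN1A.

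CDKN2A was already abundant in the control and moved less. Its normalized count was 5736 in the control, 8205 after POU2F3 gRNA, 9027 under COLCA2 gRNA 1 and 8906 under COLCA2 gRNA 2. The edited libraries were all above the control, and the guides differed by less than their counting error (ratio 1.01, 0.983 to 1.05). The fold was 1.43 (1.38 to 1.48) after POU2F3 gRNA, 1.57 (1.52 to 1.63) under COLCA2 gRNA 1 and 1.55 (1.5 to 1.61) under COLCA2 gRNA 2, below the 2-fold threshold. With COLCA2 gRNA edgeR called it, with an adjusted p of 0.00267. The gene encodes the CDK inhibitor p16 and, from another first exon and reading frame, p14ARF, which acts on the MDM2-p53 pathway. The annotated transcripts CDKN2A-201 (p16, 1218 bp) and CDKN2A-214 (p14ARF, 1283 bp) start 19526 bp apart and share 797 bp. The gene-level count therefore does not say which of these RNAs rose.

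Other genes around this locus that met the minimum did not pass 2-fold. MTAP had a normalized count of 1498 in the control, 1162 after POU2F3 gRNA, and 1203 and 1220 under COLCA2 gRNA 1 and 2. DMRTA1, with 41 to 69 reads per library, had log2 ratios of 0.55 after POU2F3 gRNA and 0.68 and 0.83 under the COLCA2 guides. For KLHL9 they were 0.14, -0.36 and -0.15, and for MLLT3 0.13, -0.11 and 0.13. IFNE fell below the minimum, with 9 reads in the control and 2 to 3 in the edited libraries. CDKN2B-AS1, an antisense RNA that overlaps exons of CDKN2A but none of CDKN2B, was not analysed here.

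**Figure D2:**
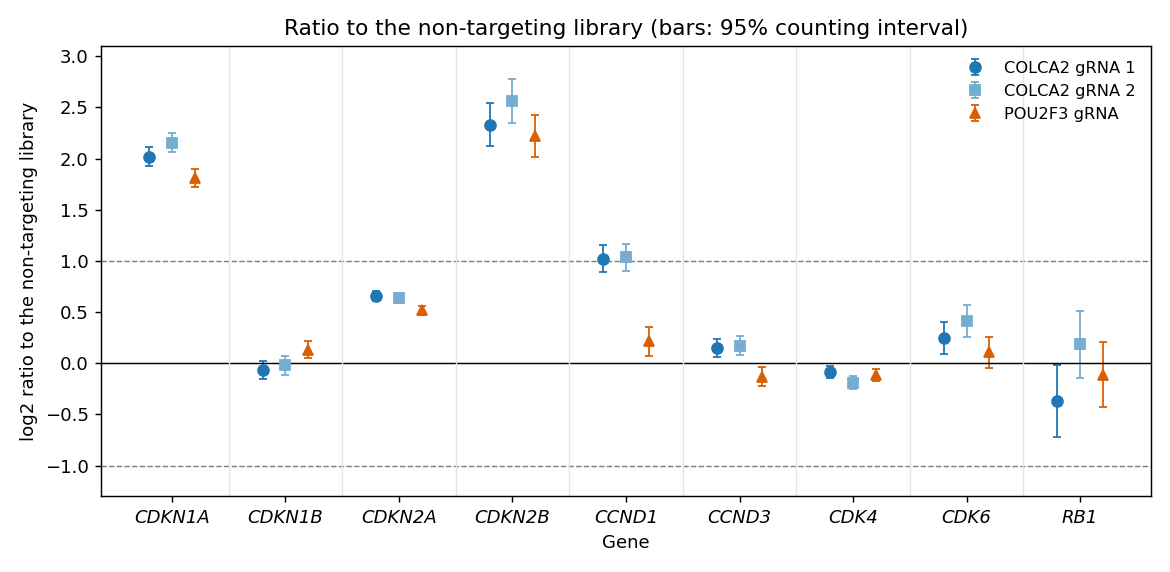
Log2 ratio of the normalized count to the non-targeting library (y axis) for each detected gene (x axis), without a pseudocount, for 3 edited libraries; bars are 95% counting intervals and dashed lines mark 2-fold. CDKN1A and CDKN2B lie above the upper line in every edited library, and CCND1 reaches it with the COLCA2 guides only, at folds of 2.03 and 2.05.

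The D cyclins, the activating partners of CDK4 and CDK6, differed from each other. CCND1 (ENSG00000110092, chromosome 11, 69641087 to 69654474, plus strand) had a normalized count of 719 in the control and 833 after POU2F3 gRNA. It had 1461 with COLCA2 gRNA 1 and 1474 with COLCA2 gRNA 2. The COLCA2 libraries lay together and well above both others. The fold over the control was 2.03 (1.86 to 2.22) and 2.05 (1.87 to 2.25) with the COLCA2 guides and 1.16 (1.05 to 1.28) with POU2F3 gRNA. Both COLCA2 values lie at the threshold: scaled to equal totals, the log2 ratios were 0.95 and 0.97, under 2-fold, and the count of genes higher with both guides was 2.

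Set directly against the COLCA2 libraries, CCND1 with POU2F3 gRNA stood at 0.571 (0.526 to 0.619) of COLCA2 gRNA 1 and 0.566 (0.520 to 0.615) of COLCA2 gRNA 2. The guides stood at a ratio of 0.991 (0.918 to 1.07), so the difference was far larger than their spread. CCND1 was the only one of the 10 genes at least 1.5-fold lower than both guides, where 2.50% of all genes were, and 0 were 1.5-fold higher, where 1.92% were. At 2-fold, 0 were higher and 0 lower, against 0.442% and 0.924% of all genes. With edgeR's quasi-likelihood test CCND1 had an adjusted p of 0.0579 for the direct difference, and 0 of the 9 genes were called, where 0.107% of all genes were called higher and 0.234% lower. At an unadjusted p under 0.05 it found 0 higher and 3 lower (CDKN1A, CCND1 and CCND3), where 6.89% of all genes were higher and 6.75% lower. Exons of LTO1, a gene on the opposite strand, overlap 497 bp of CCND1, and LTO1 had normalized counts of 318 to 380 over the libraries.

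CCND3 (ENSG00000112576, chromosome 6, 41934933 to 42050357, minus strand) had a normalized count of 1918 in the control, 1752 after POU2F3 gRNA, 2131 under COLCA2 gRNA 1 and 2162 under COLCA2 gRNA 2. The ratio to the control was 0.913 (0.858 to 0.971) after POU2F3 gRNA, 1.11 (1.04 to 1.18) under COLCA2 gRNA 1 and 1.13 (1.06 to 1.20) under COLCA2 gRNA 2. All of these are small steps around the control, and edgeR called none of them (adjusted p = 0.299 for COLCA2 gRNA). CCND2 (ENSG00000118971, chromosome 12, 4273772 to 4305350, plus strand) was listed at 0 in all 4 libraries. If the zeros are true counts, they allow up to 3 reads per library, or a normalized count of 2.52 to 3.53. AC008012.1, which overlaps 989 bp of CCND2 exons on the same strand, had normalized counts of 42.5 to 70.6, so reads from shared sequence could have gone to it.

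Levels of different genes were compared per kilobase of the longest annotated transcript. CCND3 had 801 normalized counts per kb in the non-targeting library and CCND1 had 167. CCND1 thus made up 17.2% of the D cyclin sum in the control, 20.9% after POU2F3 gRNA and 27.5% ± 0.081 (SD, n = 2) with the COLCA2 guides. The D cyclin sum itself was 968 counts per kb in the control, 925 after POU2F3 gRNA and 1237 ± 11.3 (SD, n = 2) with the COLCA2 guides. CCND3 stayed the main D cyclin RNA in every library. Without the division by length the CCND1 shares were 27.3%, 32.2% and 40.6%, in the same order.

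**Figure D3:**
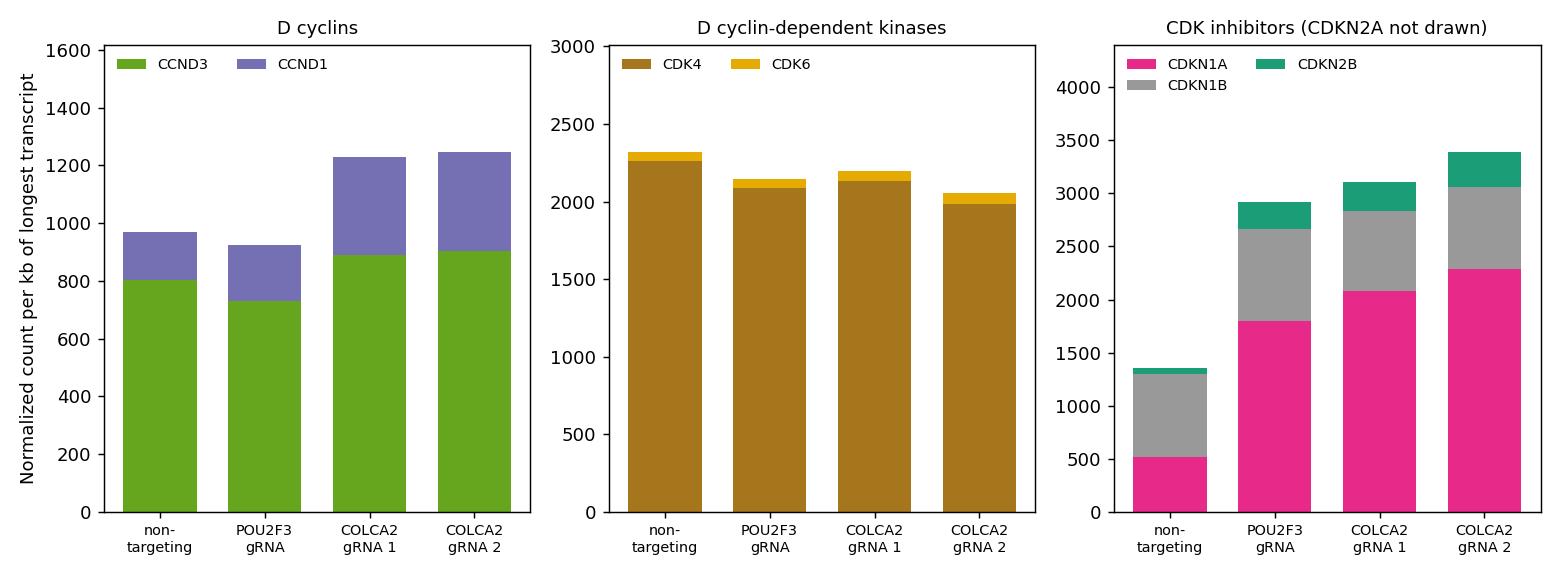
Normalized count per kb of the longest transcript (y axis, stacked bars from 0) in each library (x axis) for the D cyclins, the kinases and 3 of the inhibitors; single libraries, no error bars. The D cyclin bars are taller with the COLCA2 guides through CCND1 (167 to 339 and 342) and CCND3 (801 to 890 and 903), the kinase bars are slightly shorter in the edited libraries, and the inhibitor bars grow through CDKN1A, from 514 to between 1801 and 2287 counts per kb, and CDKN2B, from 54.9 to between 255 and 324.

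The kinase genes moved little. CDK4 (ENSG00000135446, chromosome 12, 57747727 to 57756013, minus strand) had a normalized count of 4700 in the control, 4333 after POU2F3 gRNA, 4426 under COLCA2 gRNA 1 and 4120 under COLCA2 gRNA 2. All edited libraries were slightly lower. The ratio to the control was 0.922 (0.886 to 0.959) with POU2F3 gRNA, and the COLCA2 guides, at 0.942 and 0.877, lay on either side of it. The adjusted p with edgeR was 0.356 for COLCA2 gRNA. TSPAN31, on the opposite strand, overlaps 43.2% of the exonic bases annotated for CDK4 and had normalized counts of 503 to 709. The share of CDK4 reads from these shared bases was not measured, and the use of strand is not known.

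CDK6 (ENSG00000105810, chromosome 7, 92604921 to 92836594, minus strand) had a normalized count of 614 in the control, 661 after POU2F3 gRNA, 729 under COLCA2 gRNA 1 and 817 under COLCA2 gRNA 2. The order runs from the control to COLCA2 gRNA 2, and control and POU2F3 gRNA were not separated by counting error (ratio 1.08, 0.969 to 1.20). The COLCA2 ratios were 1.19 (1.07 to 1.32) and 1.33 (1.19 to 1.48), and edgeR did not call the difference (adjusted p = 0.146). Per kilobase CDK4 made up 97.7% of the CDK4 and CDK6 sum in the control, 97.3% after POU2F3 gRNA and 96.9% ± 0.40 (SD, n = 2) with the COLCA2 guides. In the non-targeting library CDKN1A reached 514 counts per kb against 2264 for CDK4. With POU2F3 gRNA the values were 1801 and 2087, and with the COLCA2 guides 2081 and 2287 for CDKN1A against 2132 and 1984 for CDK4. CDKN1A RNA thus reached about the level of CDK4 RNA after editing, on this scale.

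RB1 (ENSG00000139687, chromosome 13, 48303726 to 48599436, plus strand) had the lowest level of the 9 detected genes. Its normalized count was 160 in the control, 149 after POU2F3 gRNA, 124 under COLCA2 gRNA 1 and 182 under COLCA2 gRNA 2. The COLCA2 guides lay at the ends of the range, at a ratio of 0.682 (0.533 to 0.872), and the other libraries between them. The POU2F3 gRNA ratio to the control was 0.926 (0.746 to 1.15), so no change was detectable at 168 to 177 reads. The related pocket protein genes were higher per kilobase. RB1 had 33.5 counts per kb in the control, RBL1 (p107) had 158 and RBL2 (p130) had 116. CDKN2A, at 4471 to 7036 counts per kb, was the most abundant of the 10 genes in every library. A sum over transcripts does not show whether the RB1 RNA encodes an intact protein.

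The wider G1/S list holds 42 genes: other inhibitors, E and A cyclins, CDK2 and the CDK-activating kinase, E2F and DP factors, pocket proteins, the SCF ubiquitin ligase and the DREAM complex. With POU2F3 gRNA 0 were at least 2-fold higher and 0 lower, beside 6.73% and 3.05% of all genes. With both COLCA2 guides 0 were higher and 0 lower, beside 5.79% and 2.02% of all genes. After adjustment, edgeR's quasi-likelihood test called 1 higher and 5 lower for POU2F3 gRNA and 1 higher and 7 lower for COLCA2 gRNA. Over all genes it called 8.45% higher and 3.98% lower for POU2F3 gRNA, and 11.4% and 7.51% for COLCA2 gRNA. The median log2 ratio was -0.15 after POU2F3 gRNA and -0.20 for the averaged COLCA2 guides, beside -0.0037 and -0.0086 over all genes.

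The genes named here for their edgeR calls were picked after their values were seen. WEE1, a kinase that restrains CDK1, was the higher one for both targets, with normalized counts of 1581 in the control, 2626 after POU2F3 gRNA, and 2830 and 2775 under COLCA2 gRNA 1 and 2. CDC25A, the phosphatase that removes inhibitory phosphates from CDK2, had 1387, 703, 886 and 740 in that order. Its log2 ratio of -0.98 with POU2F3 gRNA was just short of 2-fold, and became a call with equal totals. The other lower genes with POU2F3 gRNA were CDKN3, E2F3, SKP2 and CKS1B, with log2 ratios from -0.55 to -0.48. With COLCA2 gRNA they were CDKN1C, E2F3, E2F5, SKP2, FBXW7 and DYRK1B, with mean log2 ratios from -0.61 to -0.42. SKP2, the F-box protein that targets p27, had normalized counts of 1891 in the control, 1289 after POU2F3 gRNA, and 1444 and 1281 under the COLCA2 guides. CCNE1 had 1420, 1192, 1322 and 1334, CCNE2 had 1101, 950, 895 and 954, and E2F1 had 1733, 1284, 1466 and 1391 in the same order.

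E2F targets, the S-phase genes that RB represses, also stayed under 2-fold. Of the 40 genes, the G1/S list holds 8 too. At least 2-fold higher or lower were 0 of the 40, with POU2F3 gRNA or with both COLCA2 guides. Of all genes 6.73% were higher and 3.05% lower with POU2F3 gRNA, and 5.79% and 2.02% with both COLCA2 guides. In all 3 edited libraries 34 of the 40 lay below the control and 3 above it, beside 35.3% and 34.4% of all genes. Among the lower genes, picked after their values were seen, were CDC25A, the repressors E2F7 and E2F8, the helicase subunit MCM7 and the histone methyltransferase EZH2. In that order their log2 ratios with POU2F3 gRNA were -0.98, -0.33, -0.55, -0.34 and -0.53. Their means with the COLCA2 guides were -0.78, -0.45, -0.79, -0.35 and -0.59. The median log2 ratio was -0.27 after POU2F3 gRNA and -0.21 for the averaged COLCA2 guides. Below 0 were 35 of the 40 genes with POU2F3 gRNA and 36 with the mean of the guides, where 50.4% and 50.9% of all genes were. MCM2, a subunit of the replicative helicase, had normalized counts of 5971 in the control, 5707 after POU2F3 gRNA, and 5439 and 5108 under the COLCA2 guides. PCNA, the sliding clamp, had 5495, 4885, 4851 and 5044. Most of these genes were thus slightly lower, by amounts that the 2-fold threshold does not count.

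**Figure D4:**
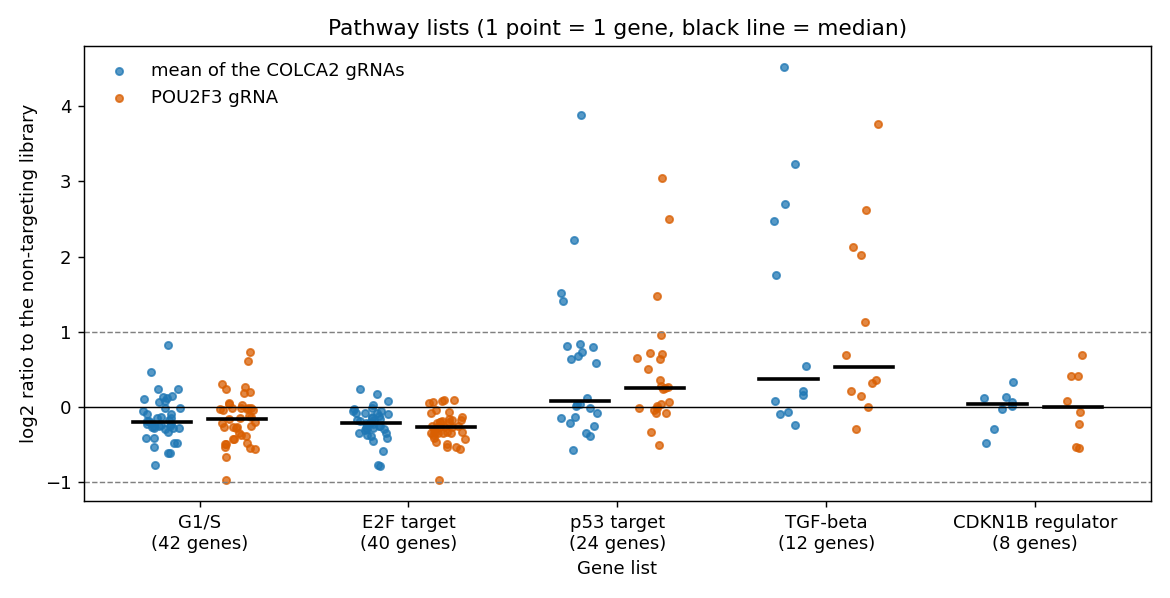
Log2 ratio to the non-targeting library (y axis) of each gene in 5 pathway lists (x axis, number of genes in brackets), for the mean of the COLCA2 gRNAs and for POU2F3 gRNA; black lines are medians and dashed lines mark 2-fold. The G1/S and E2F target genes lie between the dashed lines, with medians between -0.27 and -0.15, whereas some p53 target and TGF-beta genes lie far above them.

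CDKN1A is a textbook p53 target, and CDKN2B and CDKN1A also answer to TGF-beta through SMAD proteins, so both programmes were counted without the 2 genes. Of 24 other p53 targets, 3 were at least 2-fold higher with POU2F3 gRNA (GDF15, FAS and PLK2), beside 6.73% of all genes. With both COLCA2 guides 4 were (GDF15, FAS, PLK2 and PHLDA3), beside 5.79% of all genes. At least 2-fold lower were 0 with either target, against 3.05% and 2.02% of all genes. The median log2 ratio was 0.26 after POU2F3 gRNA and 0.078 for the averaged COLCA2 guides. The COLCA2 median was 0.17 without COLCA2 gRNA 1, 0.049 without COLCA2 gRNA 2 and 0.0086 with equal totals. PLK2, a stress-responsive kinase, had normalized counts of 3062 in the control, 17269 after POU2F3 gRNA, and 13935 and 14686 under the COLCA2 guides. GDF15, a secreted stress cytokine, had 82.1, 683, 1180 and 1280. FAS, the death receptor, had 441, 1228, 1166 and 1358, and PHLDA3, an AKT inhibitor, had 964, 1868, 2552 and 2552. MDM2, the p53 ubiquitin ligase, had 2997, 3556, 4180 and 4826, short of 2-fold. In all 3 edited libraries 13 of the 24 lay above the control and 6 below it, beside 34.4% and 35.3% of all genes. DDB2, a DNA repair gene, had the lowest mean log2 ratio of the list with the COLCA2 guides, -0.57. Most of the list thus stayed under 2-fold.

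Of 12 TGF-beta pathway genes, 5 were at least 2-fold higher with POU2F3 gRNA and 5 with both COLCA2 guides, in each case with TGFBR2, TGFBI, SMAD7 and PMEPA1 among them. Of all genes 6.73% and 5.79% were. At least 2-fold lower were 0 with either target, beside 3.05% of all genes with POU2F3 gRNA and 2.02% with both COLCA2 guides. In all 3 edited libraries 8 of the 12 lay above the control and 2 below it, beside 34.4% and 35.3% of all genes. The list median was 0.53 after POU2F3 gRNA and 0.37 for the averaged COLCA2 guides. SMAD7, a feedback inhibitor that TGF-beta induces, had normalized counts of 322 in the control, 1315 after POU2F3 gRNA, and 1842 and 1746 under the COLCA2 guides. The receptor gene TGFBR2 had 32.5, 205, 176 and 265. PMEPA1, another feedback gene, had 283, 620, 921 and 996. TGFBI had 5 reads in the control and 29 to 60 in the edited libraries. The CDKN1B regulators are 8 genes of FOXO factors and of the machinery that degrades p27. Past 2-fold were 0 of them in either direction with either target. Of all genes 6.73% were higher and 3.05% lower with POU2F3 gRNA, and 5.79% and 2.02% with both COLCA2 guides. The median log2 ratio of the 8 regulators was 0.0048 after POU2F3 gRNA and 0.040 for the averaged COLCA2 guides. These medians join genes on both sides of the control. With POU2F3 gRNA the log2 ratios were 0.69 for FOXO1, 0.41 for FOXO3, 0.42 for FOXO4 and 0.076 for RNF123. The others were lower, at -0.55 for SKP2, -0.53 for CKS1B, -0.23 for KPNA2 and -0.066 for COPS5. For the averaged COLCA2 guides the values ran from -0.48 (SKP2) to 0.33 (FOXO1). In all 3 edited libraries 3 of the 8 lay below the control and 3 above it, beside 35.3% and 34.4% of all genes.

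The genes most like CDKN1A and CDKN2B over the 3 ratios were searched among the 12159 genes whose normalized counts averaged at least 100, by Euclidean distance on the log2 scale. For CDKN1A they were TBC1D2 (distance 0.080), CSF1 (0.088) and CRISPLD2 (0.10). CSF1, the macrophage growth factor, had normalized counts of 247 in the control, 845 after POU2F3 gRNA, and 1026 and 1049 under the COLCA2 guides. For CDKN2B they were RAMP1 (0.053), PTPN21 (0.092) and NEDD9 (0.11). NEDD9, a scaffold of focal adhesions, had 453, 2203, 2272 and 2499 in that order. The measure rests on 4 libraries that share 1 control. It describes likeness of the ratios to that control only, not of level.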

How the data were processed

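RNA-seq of 4 NCI-H1048 libraries was used. The deposited values are a signal, normalized counts per gene, per the file headers. Salmon, DESeq2 and the build hg38 are named in the submitters' processing notes, without versions or roles. The annotation and the use of strand are not given in the sources used here. Dividing by 1 step per library made 100% of its values whole (relative tolerance 1e-06), so reads were recovered as the value divided by that step, and they may be rounded estimates.

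Rows of the same symbol were summed, as the choice of members required, although each member had 1 row. Ratios are log2 of the normalized count plus a pseudocount of 1 over the same in the non-targeting library. The minimum was a library average of 20, which 14940 of 35979 symbols met, and a difference of at least 2-fold was counted without a test. For COLCA2 both guides had to pass. Exact (Clopper-Pearson) 95% intervals came from the recovered reads and cover counting error only.

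As an alternative, edgeR 4.0.16 in R 4.3.3 ran its quasi-likelihood test with TMM on the recovered reads in 3 groups, with Benjamini-Hochberg adjustment over all kept genes at 0.05. Only the COLCA2 pair gives it a residual degree of freedom (1) and the control is 1 library, so its p-values compare libraries, not conditions. It called 2831 genes for COLCA2 and 1858 for POU2F3. Scripts were tested on simulated data. The other alternatives were pseudocounts of 0.1 and 10, 3 scalings, the highest row of a symbol, each guide left out, other thresholds and minimums, and shares without a length.

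Positions and transcript lengths were looked up by gene identifier in GENCODE release 29 (GRCh38), and promoters come from RefSeq tables of GRCh38.p14. Named genes were the members, the targeted genes, every G1/S list gene past 2-fold, up to 4 leading genes of each other list, fixed genes whatever their values (MDM2, CCNE1, CCNE2, E2F1, SKP2, MCM2 and PCNA), and for members past 2-fold in each targeted library the 3 nearest genes. The CDKN1B regulators were all named too. Members and lists were chosen with earlier results of these data known. The values of 1 gene that the rule for named genes selects are not reported here.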

Additional observations from a re-analysis of the deposited data

Results flagged for a closer look

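For CDKN1B and CCND3 the libraries of the 2 targets lay on opposite sides of the control. CDKN1B had a log2 ratio to the non-targeting library of 0.13 after POU2F3 gRNA, against -0.064 and -0.021 under COLCA2 gRNA 1 and 2. CCND3 had -0.13 after POU2F3 gRNA, against 0.15 and 0.17 under COLCA2 gRNA 1 and 2. The direct difference between the targets was not called by edgeR's quasi-likelihood test with Benjamini-Hochberg adjustment (adjusted p = 0.458 for CDKN1B and 0.288 for CCND3). Each pattern rests on 1 POU2F3 gRNA library and 1 control library.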

How the results depend on the processing

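Of 126 recomputed log2 ratios of the 9 detected genes, 116 stayed within the spread (SD) of the COLCA2 guides, and 10 moved beyond it. Leaving a guide out could not move a COLCA2 mean beyond that spread. Taking the highest row could change nothing, because each of these genes had 1 row. The 116 thus include values whose outcome was fixed in advance. The sign changed in 1 of the 126, RB1 with COLCA2 gRNA, which went from -0.091 to 0.18 without COLCA2 gRNA 1. The sign changed in 0 of those past 2-fold. A 4-fold threshold left 1 of the 10 genes higher with POU2F3 gRNA and 2 p53 targets higher with COLCA2 gRNA. With a 1.5-fold threshold the G1/S list had 2 genes higher and 2 lower with POU2F3 gRNA, and 1 higher and 3 lower with COLCA2 gRNA. At that threshold 1 E2F target was lower for POU2F3 gRNA and 2 were for COLCA2 gRNA. In the same order 8 and 7 p53 targets were higher, and 1 CDKN1B regulator was higher for POU2F3 gRNA. The shares of all genes past 1.5-fold or 4-fold of the control were not computed, so these counts have no background for comparison. Scaled to equal totals, 1 gene of the G1/S list and 1 E2F target were lower with POU2F3 gRNA, and the COLCA2 medians were -0.27 for G1/S and -0.28 for E2F targets. The CDKN1B regulator medians turned to -0.029 with either target under that scaling, which moved the median of all genes to -0.038 with POU2F3 gRNA and -0.078 with COLCA2 gRNA. With either guide left out, the COLCA2 median ran from -0.21 to -0.16 for G1/S and from 0.049 to 0.17 for p53 targets, whose median with equal totals was 0.0086. A minimum mean of 100 gave TGF-beta medians of 0.36 with POU2F3 gRNA and 0.21 with COLCA2 gRNA, over fewer genes. Without transcript length the CCND1 share of the D cyclins was 27.3%, 32.2% and 40.6%, and the CDK4 share of CDK4 and CDK6 was 88.4%, 86.8% and 84.7%, in the non-targeting, POU2F3 gRNA and COLCA2 gRNA libraries. Except for the thresholds, the minimum and the length, the cause was not tested. No paired analysis was possible because no replicate number past 1 occurs outside the COLCA2 pair. RB1, at 120 to 177 reads per library, was the member most limited by depth, and its COLCA2 ratio ran from -0.36 to 0.18 between the guides.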
